A study of Mus musculus with 6 samples.

Results

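Histones package DNA into nucleosomes, and the genes described here are the mouse genes for the replication-dependent histones (names beginning Hist1h to Hist4h) and for the histone variants and linker variants named H2af, H3f and H1f. They were chosen by gene name alone, leaving out names marked as pseudogenes. This gave 88 of the 47729 genes in the deposited table, 70 replication-dependent and 18 variant, with 122 of its 115220 transcripts. Because the rule read names only, some of the 88 are annotated as pseudogenes or noncoding models. The transcripts of each gene identifier were summed to a gene total in FPKM (fragments per unit of transcript length, relative to all mapped fragments). RNAseq was done on the ribosome-associated RNA of D2 dopamine receptor expressing neurons of the medial prefrontal cortex (mPFC), with 3 libraries of the Ctrl and 3 of the Gsk3sKO group, to ask how loss of the kinase GSK3β alters the translatome of these cells.

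All 6 libraries came from adult male D2Cre/LSL-Flag-Cas9/RiboTag mice, listed as strain C57BL/6. Cre, driven from a D2 receptor transgene, switched on Cas9 and the hemagglutinin-tagged ribosomal subunit Rpl22 in D2 cells, so the controls carried Cas9 too. The Ctrl group received AAV GFP and the Gsk3sKO group received AAV Gsk3sgRNA/GFP, which carries the guide RNA against Gsk3b. The mPFC was taken 3 weeks later, the tagged ribosomes were immunoprecipitated, and a stranded kit for total RNA, with no selection for poly(A) tails, gave the libraries. The labels do not say whether replicates were separate mice or pools, so p-values measure the spread between libraries, which may be technical. The spacing of low FPKM values put the reads behind the libraries at approximately 23.6 to 45.6 M. The figure is approximate because only 16.5% to 35.8% of the low values lay within 0.05 of whole reads. Evenly spread values would in part lie there too. The share was lowest in Ctrl replicate 1 (16.5%) and Gsk3sKO replicate 3 (16.9%), so their depths, 45.6 and 30.5 M, are the least certain. The Gsk3b total was 35.6, 53.8 and 56.5 FPKM in Ctrl and 36.9, 37.0 and 33.6 FPKM in Gsk3sKO (log2 difference -0.40 ± 0.19 SE, limma unadjusted p = 0.0648, adjusted p = 0.773), and 1 Ctrl library lay within the range of the Gsk3sKO libraries. A deletion at the cut site need not lower the RNA.

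Replication-dependent histone genes are clustered, have no introns and are known for high expression in the S phase of dividing cells. Their mRNAs end in a conserved stem-loop in place of a poly(A) tail, which the stem-loop binding protein SLBP recognises for processing, export and translation. Variant histones are mostly encoded by single polyadenylated genes, are made outside S phase, and supply the histone turnover of neurons, which no longer divide.

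The stem-loops of representative genes are shown because they mark which mRNAs belong to the replication-dependent class and because their letters differ between the families compared below. Each run is given 5′ to 3′ as DNA letters of the GENCODE M21 transcript, with GRCm38 positions of the stem-loop, which is the 16 bases in capitals, and its flanks in lower case.
Hist1h4m (H4, chr13:21812129-21812144, plus strand): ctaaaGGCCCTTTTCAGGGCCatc
Hist1h4h (H4, chr13:23531458-23531473, plus strand): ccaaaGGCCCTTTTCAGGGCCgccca
Hist1h4i (H4, chr13:22040966-22040981, minus strand): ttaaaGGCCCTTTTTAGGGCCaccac
Hist1h4j (H4, chr13:21735437-21735452, plus strand): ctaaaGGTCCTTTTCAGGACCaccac
Hist1h2bg (H2B, chr13:23571843-23571858, plus strand): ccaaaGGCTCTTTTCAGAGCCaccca
Hist1h1e (H1, chr13:23621782-23621797, minus strand): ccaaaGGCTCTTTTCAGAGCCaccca
H2afx (variant, chr9:44335240-44335255, plus strand): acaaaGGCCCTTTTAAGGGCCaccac

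A stem-loop was found in the annotated main transcript of 44 of the 70 replication-dependent genes, starting 21 to 58 bases after the stop codon, and in 1 of the 18 variant genes, H2afx. Of the 12 H4 genes with one, 10 began GGCCC and 2 began GGTCC. All 32 found in H1, H2A, H2B and H3 genes began GGCTC. The loop of H2afx had the GGCCC form of the H4 genes.

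Promoter windows from RefSeq (GRCm38.p6, 250 bases before to 50 bases after the start) were found for 76 of the 88 genes, as 77 windows. Both gene identifiers named Hist2h2bb had the same motif positions, so their window is counted for each in the H2B counts below. The windows were searched on both strands for 4 motifs, none of which contains another. The TATA box was searched as TATAAA and the CCAAT box by its name. GGTCCG is the core of a known H4 promoter element. The octamer of H2A and H2B promoters was searched as ATTTGCAT. GGTCCG was in 11 of 12 H4 windows (91.7%), in 1 of 50 windows of the other replication-dependent genes (2%), and in 8.25% of all 32851 windows. In 8 of those 11 it began 60 to 30 bases before the start. CCAAT was in 3 of 12 H4 windows and in 50 of 50 windows of the other replication-dependent genes, against 37.4% of all windows. The octamer was in 7 H2A and 7 H2B windows and in no H4 window, against 1.74% of all windows. Windows of neighbouring H2A and H2B genes on opposite strands can overlap. The same site can then be counted in both, so the counts of windows are not counts of separate sites. TATAAA was in 8 of 12 H4 windows and 27 of 50 of the others, against 13.6% of all windows. The H4 matches began at positions from -250 to 42 relative to the start, -128 in Hist1h4m and -32 in Hist1h4d. Such a match therefore need not be a TATA box. A match of letters is a description and no evidence of binding.

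The 150 bases before the start of 4 H4 genes and 1 H2B gene are shown because these letters set the H4 family apart from its neighbours, with every match to the 4 motifs in capitals.
Hist1h4m (chr13:21811596-21811745, plus strand): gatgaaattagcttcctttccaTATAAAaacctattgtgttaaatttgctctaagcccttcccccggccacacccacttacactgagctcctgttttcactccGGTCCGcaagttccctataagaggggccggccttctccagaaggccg
Hist1h4c (chr13:23698459-23698608, minus strand): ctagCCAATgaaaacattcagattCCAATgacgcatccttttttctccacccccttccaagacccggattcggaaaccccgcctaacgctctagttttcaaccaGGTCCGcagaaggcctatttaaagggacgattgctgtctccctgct
Hist1h4d (chr13:23581418-23581567, plus strand): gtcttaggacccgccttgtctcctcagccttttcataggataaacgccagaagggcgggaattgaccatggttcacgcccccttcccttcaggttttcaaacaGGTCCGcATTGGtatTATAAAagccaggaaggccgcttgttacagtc
Hist1h4f (chr13:23551669-23551818, minus strand): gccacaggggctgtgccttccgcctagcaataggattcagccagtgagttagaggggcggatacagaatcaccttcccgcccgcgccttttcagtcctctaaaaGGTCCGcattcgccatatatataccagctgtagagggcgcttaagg
Hist1h2bg (chr13:23571250-23571399, plus strand): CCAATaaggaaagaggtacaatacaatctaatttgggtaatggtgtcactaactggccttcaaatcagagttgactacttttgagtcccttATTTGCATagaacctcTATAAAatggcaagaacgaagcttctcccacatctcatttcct

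Histone RNA was present in these preparations. Of the 88 gene totals, 73 had a mean of at least 1 FPKM over the 6 libraries and were tested, 62 replication-dependent and 11 variant, and 5 were listed at 0 in every library. The summed level of the replication-dependent genes was 1206, 1200 and 1336 FPKM in Ctrl and 1269, 1005 and 856 FPKM in Gsk3sKO, and the groups overlapped (1247 ± 76.6 against 1044 ± 209 FPKM, SD, n = 3 each). These are summed levels and carry no test. H4 genes made up the largest share of that sum. Of the replication-dependent FPKM, 52.3%, 48.6% and 44.4% came from H4 genes in Ctrl and 40.2%, 31.1% and 37.7% in Gsk3sKO, and every Gsk3sKO share was below every Ctrl share. In bulk samples, fewer cells of a type and less RNA per cell cannot be told apart.

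**Figure D1:**
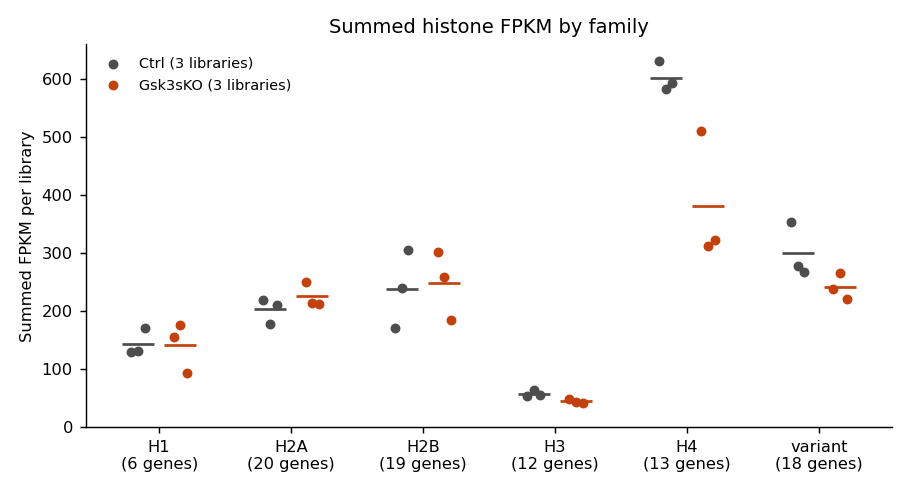
Summed FPKM (vertical axis) of all genes of each histone family in each library, with 3 Ctrl and 3 Gsk3sKO libraries as points and lines at the group means. The 3 Gsk3sKO libraries lie between 312.5 and 510.4 for H4, all below the Ctrl libraries at 583.4 to 631.1, while the groups overlap for H1, H2A and H2B.

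With limma on log2(FPKM + 1), 12 of the 73 tested members had an unadjusted p under 0.05, all with a lower level in Gsk3sKO, 10 replication-dependent and 2 variant. Over all 12874 gene totals tested, 6.56% had such a p, 5.2% with a lower and 1.36% with a higher level. No member passed after Benjamini-Hochberg adjustment (lowest adjusted p = 0.394, for Hist1h4m), against 0.0466% of all gene totals, so no histone gene can be called changed by that test. The unadjusted values below describe where the lower levels lay. They were not spread evenly: 8 of the 12 were H4 genes, 1 H2B, 1 H3 and 2 variants, with 0 of 5 H1 and 0 of 19 H2A genes. The median of all log2 differences was -0.06, to be read beside every difference that follows.

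H4, the partner of H3 in the core of the nucleosome, had a lower mean level in Gsk3sKO in every gene. All 13 H4 genes were tested, all 13 had a negative log2 difference (58.9% of all gene totals did), between -0.95 and -0.45 with a median of -0.71, and 8 of 13 had an unadjusted p under 0.05 (Hist1h4b, Hist1h4c, Hist1h4f, Hist1h4h, Hist1h4j, Hist1h4k, Hist1h4m and Hist1h4n). The summed H4 level was 631, 583 and 592.5 FPKM in Ctrl and 510, 312.5 and 323 FPKM in Gsk3sKO (602 ± 25.3 against 382 ± 111 FPKM, SD, n = 3 each), so Gsk3sKO replicates 2 and 3 stood well below replicate 1. In 7 of the 13 genes every Gsk3sKO library was below every Ctrl library, which 8.3% of all gene totals showed. An exact permutation test over 3 against 3 libraries cannot give a p below 0.1.

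The most abundant H4 gene was Hist1h4d (ENSMUSG00000061482, chr13:23581598-23582735). It measured 210, 207 and 262 FPKM in Ctrl and 230, 117 and 128 FPKM in Gsk3sKO, so the first Gsk3sKO library lay among the controls (log2 difference -0.57 ± 0.25 SE, limma unadjusted p = 0.0509, adjusted p = 0.755). Hist1h4c (ENSMUSG00000060678, chr13:23697635-23698454) measured 112, 81.7 and 60.5 FPKM in Ctrl and 59.4, 41.3 and 49.7 FPKM in Gsk3sKO (-0.72 ± 0.23, limma unadjusted p = 0.015, adjusted p = 0.688). Its groups did not overlap, though the gap was narrow.

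Hist1h4h (ENSMUSG00000060981, chr13:23531050-23531519) had the most negative log2 difference of the H4 genes. It measured 75.3, 95.0 and 68.6 FPKM in Ctrl and 66.1, 32.0 and 30.9 FPKM in Gsk3sKO (-0.95 ± 0.29, limma unadjusted p = 0.00982, adjusted p = 0.658). Hist1h4m (ENSMUSG00000069306, chr13:21811746-21812147) had the lowest p of all members. It measured 35.5, 33.6 and 29.4 FPKM in Ctrl and 22.3, 17.3 and 15.6 FPKM in Gsk3sKO (-0.81 ± 0.17, limma unadjusted p = 0.00141, adjusted p = 0.394), and its groups stood well apart.

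Hist1h4b (ENSMUSG00000069266) measured 20.2, 23.5 and 21.9 FPKM in Ctrl and 17.1, 13.7 and 9.18 FPKM in Gsk3sKO (-0.71 ± 0.22, limma unadjusted p = 0.0123, adjusted p = 0.671). Hist1h4f (ENSMUSG00000069274) measured 21.8, 26.7 and 20.9 FPKM in Ctrl and 18.2, 17.3 and 8.06 FPKM in Gsk3sKO (-0.71 ± 0.29, limma unadjusted p = 0.0393, adjusted p = 0.75). The groups did not overlap for either gene. Hist1h4n (ENSMUSG00000069305) measured 31.3, 36.9 and 35.5 FPKM in Ctrl and 26.7, 8.12 and 25.1 FPKM in Gsk3sKO (-0.92 ± 0.39, limma unadjusted p = 0.0432, adjusted p = 0.75), and the low middle value carried much of the difference. Hist1h4j (ENSMUSG00000067455) measured 5.5, 6.15 and 4.22 FPKM in Ctrl and 3.69, 3.35 and 2.67 FPKM in Gsk3sKO (-0.56 ± 0.24, limma unadjusted p = 0.0447, adjusted p = 0.75). Hist1h4k (ENSMUSG00000064288), whose groups overlapped, measured 48.8, 34.0 and 47.8 FPKM in Ctrl and 32.3, 35.4 and 17.9 FPKM in Gsk3sKO (-0.63 ± 0.27, limma unadjusted p = 0.0438, adjusted p = 0.75).

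The other H4 genes gave less. Hist1h4i, named as one of the 5 most negative replication-dependent genes after Hist2h3b, measured 17.9, 6.93 and 5.67 FPKM in Ctrl and 2.83, 4.21 and 9.74 FPKM in Gsk3sKO (-0.74 ± 0.48), with wide overlap. Hist1h4a, Hist2h4 and Hist4h4 had log2 differences of -0.45, -0.72 and -0.51 and overlapping groups. When 1 library was left out at a time, Hist1h4m, Hist1h4h and Hist1h4b had an unadjusted limma p under 0.05 in 6 of 6 fits and Hist1h4c in 5 of 6. Hist1h4k and Hist1h4n had it in 3 of 6 fits, Hist1h4f in 2 of 6 and Hist1h4j in 1 of 6. Without Ctrl replicate 1 the H4 count was 4 of 13, without Ctrl replicate 3 it was 5, and without Gsk3sKO replicate 1 it was 9.

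**Figure D2:**
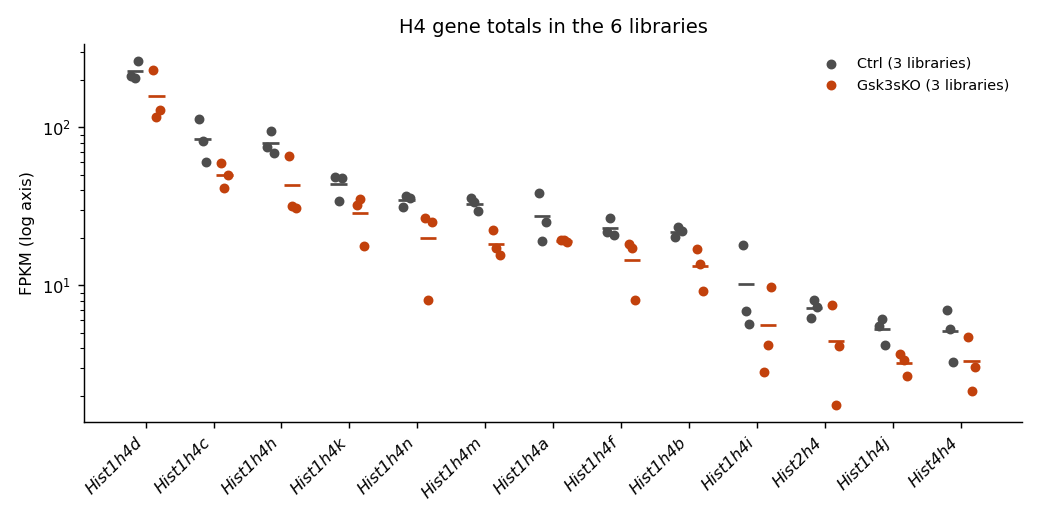
FPKM (vertical log axis) of each of the 13 H4 gene totals in the 3 Ctrl and 3 Gsk3sKO libraries, with lines at the group means, genes ordered by mean level. The Gsk3sKO mean lies below the Ctrl mean for all 13 genes, and the libraries do not overlap for 7 of them.

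The H4 genes encode one protein in many copies of the gene, so reads can be hard to place. All 13 coding sequences were 312 bases long and translated to the same protein, with a pairwise identity of 85.3% to 100% (median 93.9% over 78 pairs). Between 1.01% and 89.8% (median 39.5%) of the 50-base windows of an H4 transcript were also found in another annotated gene, and how such reads were counted is not given in the sources used here. Hist1h4m and Hist1h4n shared 89.8% and 83.2% of their windows with each other, and their 2 levels are uncertain as a pair. In the 5 H4 genes with under 25% of windows shared, all 5 log2 differences were negative, between -0.72 and -0.51 with a median of -0.57. Of the 9 other replication-dependent genes with under 25% shared, 8 were negative with a median of -0.31, and of the 40 with more sharing 23 were negative with a median of -0.07.

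The H4 genes lie at 3 loci, and the lower level was seen at each: 11 genes on chromosome 13, Hist2h4 on chromosome 3 and Hist4h4 on chromosome 6. The nearest tested replication-dependent gene of another family lay 623 to 13256 bases away for 12 of the H4 genes. Of those 12 neighbours, 7 had a negative difference, with a median of -0.13. Other replication-dependent genes on chromosome 13 had a median of -0.12, 26 of 38 negative. The 5 H4 transcripts whose model ends within 100 bases of the stem-loop had a median of -0.81 and the 7 that run further had a median of -0.57. For the other replication-dependent genes these medians were -0.04 (17 genes) and -0.19 (12 genes), and neither difference was tested.

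Most tested short RNAs also had a negative log2 difference, but not in every class were all Ctrl libraries the higher ones, and their part in the result was not tested. Of the tested gene totals, 193 of 229 snoRNAs, 46 of 51 snRNAs and 20 of 20 nuclear rRNA rows had a negative log2 difference, with medians of -1.07, -0.94 and -1.78. The summed snRNA level was 8142, 4797 and 1974 FPKM in Ctrl and 2347, 2083 and 2443 FPKM in Gsk3sKO. For the snRNAs only Ctrl replicates 1 and 2 were high, and Ctrl replicate 3 was below every Gsk3sKO library. The summed snoRNA level was 3706, 5447 and 2595 FPKM in Ctrl and 1949, 1579 and 1581 FPKM in Gsk3sKO. The nuclear rRNA rows summed to 7809, 8335 and 4200 FPKM in Ctrl and 2892, 1568 and 1307 FPKM in Gsk3sKO. For snoRNAs and nuclear rRNA rows, every Ctrl library was above every Gsk3sKO library. The RNA component of RNase P, Rpph1, was at 19840, 5102 and 2579 FPKM in Ctrl and 2268, 1349 and 2687 FPKM in Gsk3sKO, highest in the first Ctrl library. Among protein-coding genes outside the histones, those with a main transcript of over 500 and up to 1000 bases had a median of -0.24 with 72% negative (675 genes), and those of over 2000 bases a median of -0.03 with 55.3% negative (7837 genes). Those of up to 500 bases had a median of -0.19 with 62.8% negative (94 genes). The H4 median of -0.71 lay below these protein-coding medians and above the snoRNA, snRNA and nuclear rRNA medians. At an unadjusted limma p under 0.05, 95 of 229 snoRNAs, 9 of 51 snRNAs and 17 of 20 nuclear rRNA rows were lower. Higher were 3, 0 and 0. Of the protein-coding genes of over 500 and up to 1000 bases, 74 of 675 were lower and 11 higher at that p. Of those up to 500 bases, 10 of 94 were lower and 2 higher. Beside these stand 8 of 13 H4 genes lower and 5.2% of all gene totals. A correction for GC content and length moved the H4 median to -0.59 and left 3 H4 genes with an unadjusted p under 0.05.

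The summed FPKM of a library ranged from 385795 to 608528, and was higher in Ctrl replicates 1 and 2 than in the other 4 libraries. Tested miRNA genes summed to 221644, 194199 and 80480 FPKM in Ctrl and 82340, 64180 and 41140 FPKM in Gsk3sKO. A single annotated gene, Gm23935, held most of that sum in every library, so the sum does not describe miRNAs as a class. It was at 148027, 137332 and 53550 FPKM in Ctrl and 56750, 48540 and 30100 FPKM in Gsk3sKO. Tested protein-coding genes summed to 288669, 277628 and 282054 FPKM in Ctrl and 282223, 276360 and 272432 FPKM in Gsk3sKO. The part of either class in the rescaled values was not tested. As a share of the summed FPKM of its library, H4 made up 0.104%, 0.106% and 0.143% in Ctrl. In Gsk3sKO it made up 0.121%, 0.0784% and 0.0838%, and the groups overlapped. When each library was divided by its total, the median of all genes was 0.25, the H4 median was -0.36 with 13 of 13 still negative, and 0 H4 genes had an unadjusted p under 0.05 in limma. The distance of the H4 median from that of all genes was -0.65 on the deposited scale and -0.61 after this rescaling. Dividing a library by its total shifts all its genes by nearly the same amount. This distance could therefore change little, and it is no test of the H4 difference. Over 14 alternative settings every tested H4 gene had a negative difference.

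The other replication-dependent families had family medians nearer 0 than H4 and single genes of both signs. H1, the linker histones, had 3 of 5 tested genes negative, with a median of -0.10. The most abundant, Hist1h1e, measured 67.3, 65.8 and 83.7 FPKM in Ctrl and 86.5, 94.5 and 47.3 FPKM in Gsk3sKO, a spread in Gsk3sKO that covered the controls (0.02 ± 0.25). Its sign turned in 4 of the 6 fits that left out 1 library.

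H2A had 10 of 19 tested genes negative, with a median of -0.08 and no unadjusted p under 0.05. Its summed level was 220, 179 and 211.5 FPKM in Ctrl and 251, 214 and 213 FPKM in Gsk3sKO, with overlap. Hist2h2aa1 measured 34.9, 0 and 21.8 FPKM in Ctrl and 53.6, 49.4 and 39.6 FPKM in Gsk3sKO, and it was the only tested histone gene with every Gsk3sKO library above every Ctrl library, which 3.71% of all gene totals showed. Its log2 difference was 2.36 ± 1.14, and 0.75 without Ctrl replicate 2, where it is listed at 0. All of its windows are shared with other annotated genes. Hist2h2aa2 measured 38.3, 50.02 and 66.1 FPKM in Ctrl and 56.2, 57.6 and 50.1 FPKM in Gsk3sKO (0.12 ± 0.20). All of the windows of Hist2h2aa2 were also found in Hist2h2aa1, so their levels are uncertain as a pair. Hist2h2ac, from the same cluster, had a log2 difference of 0.32 ± 0.26.

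H2B had 12 of 15 tested genes negative, with a median of -0.31. The summed level was 171, 240 and 306 FPKM in Ctrl and 302, 259 and 186 FPKM in Gsk3sKO, and the groups overlapped. Most of it came from a Hist2h2bb model (ENSMUSG00000105827) on chromosome 3 that holds a coding sequence alone and shares all of its windows with other annotated genes. That model measured 87.4, 120.5 and 195 FPKM in Ctrl and 216, 170 and 110 FPKM in Gsk3sKO (0.33 ± 0.32), with full overlap. Hist1h2bg (ENSMUSG00000058385, chr13:23571396-23572013), whose promoter is shown above, measured 20.4, 22.9 and 24.7 FPKM in Ctrl and 17.7, 12.4 and 10.8 FPKM in Gsk3sKO (-0.72 ± 0.20, limma unadjusted p = 0.00705, adjusted p = 0.607). Its groups did not overlap, and the p was under 0.05 in 6 of 6 fits without 1 library, but not after rescaling to the total FPKM (-0.38). Hist1h2bl, a low gene at 0.418 to 0.817 FPKM in Ctrl and 0.602 to 5 FPKM in Gsk3sKO, had a log2 difference of 0.94 ± 0.48 with overlapping groups.

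H3 had 6 of 10 tested genes negative, with a median of -0.12. The summed level was 54.4, 65.3 and 55.3 FPKM in Ctrl and 49.7, 44.1 and 41.3 FPKM in Gsk3sKO, and the groups did not overlap. Hist2h3b (ENSMUSG00000074403, chr3:96268654-96269141) carried most of that gap. It measured 26.2, 8.74 and 7.31 FPKM in Ctrl and 3.29, 5.34 and 2.0 FPKM in Gsk3sKO (-1.58 ± 0.47, limma unadjusted p = 0.0089, adjusted p = 0.651), the highest value being in the first Ctrl library. The difference was -1.05 without that library, and all of its windows are shared with other annotated genes. Hist1h3f had a log2 difference of 0.29 ± 0.44.

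**Figure D3:**
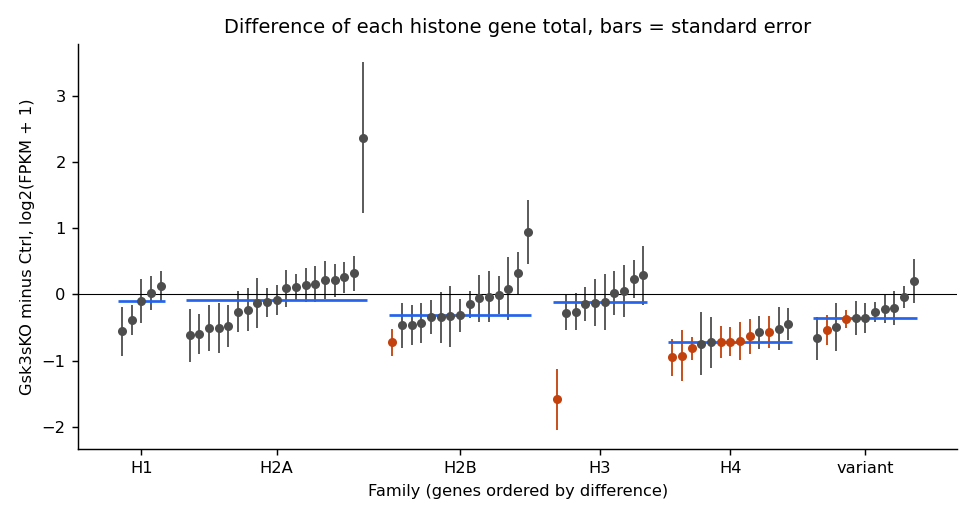
Log2 difference (Gsk3sKO minus Ctrl, vertical axis) of each of the 73 tested histone gene totals, grouped by family and ordered within it, with bars of 1 standard error, orange for an unadjusted limma p under 0.05 and blue lines at the family medians. The H4 genes all lie below 0, between -0.95 and -0.45, while every other family has points on both sides.

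Variant histone genes gave 10 of 11 negative log2 differences, with a median of -0.35 against -0.06 over all genes. The summed level was 354, 278 and 268 FPKM in Ctrl and 239, 266 and 221.5 FPKM in Gsk3sKO, so the highest Gsk3sKO library stood just under the lowest Ctrl library (300.0 ± 47.0 against 242 ± 22.5 FPKM, SD, n = 3 each). Divided by the total FPKM, the log2 ratio of the group means went from -0.31 to 0.06, so its direction depends on the scaling.

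H2afz encodes H2A.Z, a variant found at promoters. It measured 66.8, 57.1 and 57.9 FPKM in Ctrl and 48.5, 48.4 and 43.3 FPKM in Gsk3sKO (-0.37 ± 0.13, limma unadjusted p = 0.023, adjusted p = 0.697), and it was the only tested variant without overlap. H2afx encodes H2A.X, the variant phosphorylated at DNA breaks, and is the variant gene with a stem-loop. It measured 22.5, 16.7 and 21.6 FPKM in Ctrl and 17.3, 14.4 and 9.98 FPKM in Gsk3sKO (-0.53 ± 0.22, limma unadjusted p = 0.0441, adjusted p = 0.75), and the groups overlapped narrowly. The p of H2afz stayed under 0.05 in 4 of 6 fits without 1 library, and that of H2afx in 2 of 6. H2afv, which encodes a second H2A.Z protein, had a log2 difference of -0.21 ± 0.26.

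H3f3a and H3f3b both encode H3.3, the replacement histone that accumulates in neurons. H3f3b measured 59.9, 62.1 and 67.0 FPKM in Ctrl and 57.4, 77.7 and 51.6 FPKM in Gsk3sKO, with no separation of the groups (-0.04 ± 0.17). H3f3a measured 50.4, 26.4 and 21.2 FPKM in Ctrl and 15.6, 16.7 and 25.7 FPKM in Gsk3sKO (-0.66 ± 0.32, limma unadjusted p = 0.071, adjusted p = 0.779). The high first Ctrl library set much of that difference. H3f3c, annotated as a processed pseudogene, was at 1.12 to 2.4 FPKM in Ctrl and 1.24 to 2.82 FPKM in Gsk3sKO (0.20 ± 0.33).

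Of the macroH2A genes, whose proteins carry a large extra domain, H2afy measured 50.1, 32.5 and 29.9 FPKM in Ctrl and 28.6, 35.4 and 30.3 FPKM in Gsk3sKO (-0.22 ± 0.21), and H2afy2 had a difference of -0.35 ± 0.22. H2afj had a difference of -0.35 ± 0.25. The linker variant H1f0, typical of cells that no longer divide, measured 38.1, 37.3 and 31.7 FPKM in Ctrl and 29.9, 31.9 and 26.8 FPKM in Gsk3sKO (-0.26 ± 0.14), and 1 Gsk3sKO library exceeded the lowest control. The linker variant H1fx had a difference of -0.49 ± 0.36. The testis or germline genes H1foo, H2afb1, H2afb2 and H2afb3 were listed at 0 in every library, as was the replication-dependent gene Hist1h2aa.

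**Figure D4:**
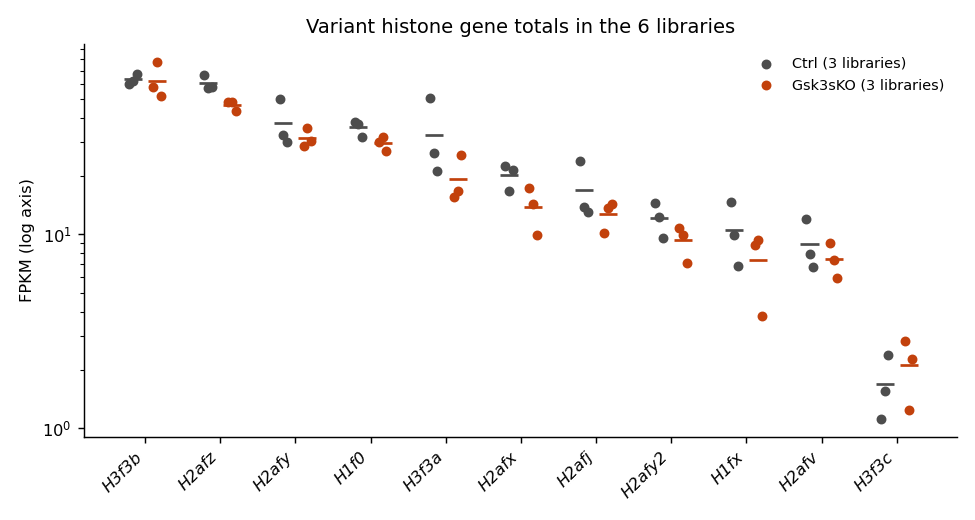
FPKM (vertical log axis) of the 11 tested variant histone gene totals in the 3 Ctrl and 3 Gsk3sKO libraries, with lines at the group means, genes ordered by mean level. The groups are apart for H2afz and overlap for the other 10 genes.

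Transcripts gave the same picture at lower numbers. Of 82 tested histone transcripts, 7 had an unadjusted limma p under 0.05, all lower in Gsk3sKO, and 0 an adjusted one. Over 21584 transcripts 5.56% had an unadjusted p under 0.05, 3.75% with a lower and 1.81% with a higher level, and 0% an adjusted one. They were those of Hist1h4m, Hist1h2bg, Hist1h4h, Hist2h3b, Hist1h4b, Hist1h4c and the main H2afz transcript, each the sole or main transcript of a gene described above. Beside that H2afz transcript, at 54.7, 52.9 and 51.1 FPKM in Ctrl and 44.2, 43.9 and 35.5 FPKM in Gsk3sKO, a short H2afz transcript marked for nonsense-mediated decay was at 1.36 to 1.54 FPKM in Ctrl and 2.07 to 6.46 FPKM in Gsk3sKO.

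The machinery that makes replication-dependent histone mRNA was measured through 18 genes, of which 17 were tested. None had a lower level at an unadjusted p under 0.05 and 1 a higher one (1.36% of all genes had), with 0 past adjustment and a median of -0.01. Slbp, the stem-loop binding protein, measured 22.8, 19.0 and 16.5 FPKM in Ctrl and 19.3, 14.3 and 13.1 FPKM in Gsk3sKO (-0.31 ± 0.20), and the groups overlapped. Npat, the coactivator of histone gene transcription, was at 3.61 to 5.62 FPKM in Ctrl and 3.68 to 5.02 FPKM in Gsk3sKO (-0.07 ± 0.24). Cstf2, a subunit of the cleavage complex, measured 18.5, 30.6 and 36.3 FPKM in Ctrl and 41.0, 43.4 and 55.4 FPKM in Gsk3sKO (0.73 ± 0.25, limma unadjusted p = 0.0174, adjusted p = 0.688), without overlap. The most abundant of the list were Cstf2t, Cstf2 and Srrt, and Cstf2t and Srrt had differences of 0.03 and -0.13.

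Of 41 histone chaperones and deposition factors, 38 were tested, with a median of 0.04. At an unadjusted limma p under 0.05, 1 was lower (5.2% of all gene totals were) and 1 higher (1.36% were), with 0 past adjustment. Rbbp7, a histone-binding subunit of several chromatin complexes, measured 112, 71.7 and 75.0 FPKM in Ctrl and 63.4, 50.5 and 69.3 FPKM in Gsk3sKO (-0.48 ± 0.20, limma unadjusted p = 0.0468, adjusted p = 0.752). Srcap, the ATPase that places H2A.Z into nucleosomes, measured 18.9, 16.5 and 29.8 FPKM in Ctrl and 32.5, 35.4 and 36.6 FPKM in Gsk3sKO (0.70 ± 0.22, limma unadjusted p = 0.0117, adjusted p = 0.671). Neither overlapped. The most abundant members, Nap1l5, Nap1l1 and Ncl, had differences of 0.05, -0.04 and 0.03.

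Markers of other cells were read because dividing cells carry the most replication-dependent histone mRNA. Of 16 markers of cycling cells, 10 stayed under 1 FPKM in every library, Bub1 and Plk1 were listed at 0 in all 6, and 4 were tested with 0 called. Pcna, the highest of them, was at 10.2 to 15.5 FPKM in Ctrl and 10.5 to 13.5 FPKM in Gsk3sKO, E2f1 followed at 1.65 to 4.83 and 2.33 to 3.16 FPKM, and the summed list was 16.3 to 29.4 FPKM and 19.7 to 20.6 FPKM.

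The neuronal markers were high and even between groups, with a sum of 1896 to 2062 FPKM in Ctrl and 1892 to 2121 FPKM in Gsk3sKO, led by Snap25 and Syt1, and 0 of 5 called. Drd2, which defines the labelled cells, was low at 1.58, 6.02 and 14.1 FPKM in Ctrl and 8.32, 5.96 and 7.28 FPKM in Gsk3sKO. Glial and endothelial markers were present at lower sums. These were, in Ctrl and Gsk3sKO, 55.1 to 67.0 and 49.8 to 70.9 FPKM for 5 astrocyte markers led by Slc1a3 and Gja1. For 5 microglia markers, led by C1qa and P2ry12, they were 12.1 to 17.6 and 10.4 to 14.9 FPKM. Oligodendrocyte precursors, led by Pdgfra and Gpr17, gave 7.26 to 13.1 and 5.55 to 7.57 FPKM, and endothelial cells, led by Flt1 and Cldn5, 10.7 to 38.4 and 16.9 to 35.1 FPKM. Mag (-0.69), Mog (-1.57) and C1qa (-0.82) had a lower level in Gsk3sKO at an unadjusted limma p under 0.05, and none after adjustment. Their part in the histone levels was not tested.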

How the data were processed

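Ribosome-associated RNA from 3 Ctrl and 3 Gsk3sKO libraries was analysed. The authors deposited FPKM per transcript and library, and the submitters' processing notes list HISAT2 2.1.0, SAMtools 1.9, StringTie 1.3.4d and GRCm38. The sources used here do not give settings, the annotation or the treatment of reads with several matches. The authors also deposited a fold and a p-value and q-value of their own comparison, which were not used. No column of values per library was left out (0).

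FPKM was summed by gene identifier. Totals and transcripts whose mean over 6 libraries reached 1 FPKM were compared by limma 3.58.1 in R 4.3.3 (lmFit, then eBayes with trend) as log2(FPKM + 1), 2-sided and with no covariate, with Benjamini-Hochberg adjustment over all tested features. A log2 difference on this scale understates the change of low genes. The fit was tested on simulated data. Tables and figures used Python 3.11.15, pandas 2.3.3, numpy 2.4.6 and matplotlib 3.10.9.

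The members and lists were chosen with earlier results of these data known. The rule for named genes took Gsk3b, every tested variant and every transcript with an unadjusted p under 0.05. Among replication-dependent totals it took the 6 highest means, the 5 largest differences each way and every such p. From each gene list it took every such p and the 3 highest means, and from each marker list the 2 highest means. Named beyond the rule, with values already seen, were the remaining H4 genes, Slbp, Npat, Rpph1 and Gm23935. So were Mag, Mog, C1qa, the short H2afz transcript and genes listed at 0. The summed level of the oligodendrocyte list is not reported here. Sequence windows of 50 bases were compared over GENCODE M21 transcripts on both strands. Alternatives were another pseudocount (0.1), filters (none, 5), scalings, an ordinary linear model, a replicate block, a GC and length correction, and leaving out each library.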

Additional observations from a re-analysis of the deposited data

How the results depend on the processing

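No histone gene total had an adjusted limma p under 0.05 on the deposited scale or in the 14 alternative settings. Correcting for GC content and length, the division by the total FPKM, and the count over H4 genes were chosen after seeing the data. The count of histone gene totals with an unadjusted p under 0.05, 12 in limma, was 7 after rescaling to the median ratio, 5 in an ordinary linear model, 4 after rescaling to the total FPKM (Hist2h3b lower, Hist2h2aa1, Hist2h2ac and Hist1h2bl higher, with differences of -1.28, 2.64, 0.67 and 1.16), 8 without a filter and 9 to 16 when a library was left out. The count of H4 genes, 8, was 5 without a filter, 5 with the median ratio, 3 in an ordinary linear model, 3 with the GC and length correction, 0 with the total FPKM and 4 to 9 when a library was left out. The transcript count, 7, was 2 with the total FPKM and 4 to 12 when a library was left out. The log2 ratio of group means went from -0.26 to 0.070 for the replication-dependent sum and from -0.31 to 0.061 for the variant sum when rescaled to the total FPKM. The replication-dependent ratio was -0.13 without Gsk3sKO replicate 3 and -0.42 without Gsk3sKO replicate 1, and the variant ratio -0.17 without Ctrl replicate 1. With the total FPKM, 241 gene totals were called lower and 874 higher, against 669 and 175 as deposited and 528 and 276 with the median ratio, and the median of all genes was 0.25. Signs turned for H3f3b with the median ratio (0.018), and with the total FPKM for H3f3b (0.32), H2afy (0.14), H1f0 (0.090) and H2afv (0.12). Leaving out 1 library gave -0.16 to 0.33 for Hist1h1e, -0.075 to 0.31 for Hist2h2aa2, -0.19 to 0.67 for Hist1h3f, -0.21 to 0.084 for H3f3b, -0.36 to 0.0068 for H2afy and -0.36 to 0.011 for H2afv. The cause of these changes was not tested. Of all settings of the named genes, 327 kept their side of the threshold and direction, 57 lost and 17 gained an unadjusted p under 0.05, and 16 turned sign. Samples with the same number did not deviate together (correlations -0.03, -0.01 and -0.08), and with a replicate block 10 histone genes, 6 of them H4 genes, had an unadjusted p under 0.05. The table holds no counts, so the reads behind a low gene are known only approximately, and with 3 libraries a group the spread of a single gene is poorly known.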
